A study of Homo sapiens with 12 samples.

Results

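Ferritin and cellular iron handling were described through 10 genes of the 63241 in the count table, selected on their gene names: FTH1, BEST1, FTL, TFRC, ACO1, IREB2, NCOA4, SLC40A1, SLC39A14 and STEAP3. BEST1 encodes a chloride channel and was placed among them because its exons lie opposite those of FTH1 and because more counts stood under its name than under any other. It was thus chosen by its count over all libraries, and that level is given as a description. In all, 9 of the 10 genes passed the filter on low counts and were tested, and SLC40A1 did not.

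The series measured polyadenylated RNA in T98G and U251, established human glioblastoma lines, to compare cells that over-express PEPD (prolidase, an enzyme that splits dipeptides ending in proline) with cells labelled NC, which the labels do not spell out. The groups were T98G PEPD-OE, T98G NC, U251 PEPD-OE and U251 NC, with 3 libraries in each and no other agent or allele named. The labels do not say how PEPD was introduced, whether the cells were a clone or a pool, or whether replicates were separate cultures, so the p-values may measure technical spread only. In bulk RNA of this kind, fewer cells of a type and less RNA per cell cannot be told apart.

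Library totals ranged from 464056 to 924204 counts. Counts under PEPD rose 16.4-fold in T98G PEPD-OE and 17.9-fold in U251 PEPD-OE (log2 changes of 4.04 and 4.16). Of 8 glioma and astroglial markers, S100B, OLIG2 and FABP7 had no count in T98G, and OLIG2 had none in U251. A pair of libraries stood apart: T98G PEPD-OE 2 and T98G NC 2 held 2630 and 1707 counts of HBB, a haemoglobin chain, against 60 at most in any other library, and 25 and 35 counts of PTPRC, a white blood cell gene, against 5 at most. Many of the T98G results below are therefore also given without that pair, a setting chosen after seeing the data.

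Ferritin is a hollow shell of heavy (FTH1) and light (FTL) chains that stores iron. Cells take up transferrin-bound iron through the transferrin receptor TFRC, release stored iron when NCOA4 carries ferritin to the lysosome, and export iron through ferroportin, SLC40A1. When iron is scarce, the iron regulatory proteins encoded by ACO1 and IREB2 bind iron-responsive elements, short RNA hairpins: in a 5′ UTR they block translation, and in the 3′ UTR of TFRC they protect the message from decay.

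The elements are shown as background to the control described above, and a link between them and the changes in counts was not tested. They were searched in the GENCODE 29 transcripts of all 10 genes (GRCh38) as the loop CAGTGN, closed by 5 pairable bases on each side with G:T allowed, and with a C on the 5′ side of that stem. The loop is in capitals, 5′ to 3′ on the strand of the gene. FTH1, FTL and SLC40A1 each had 1 match in the 5′ UTR, and TFRC had 4 in the 3′ UTR, listed in their order along the message. The listing does not cover SLC39A14, and whether that gene held a match is not reported here. The same pattern, searched in the longest coding transcript of each gene alone, matched 260 of 19702 genes (1.32%). For the members every coding transcript was searched, so that share is not a like comparison. A match is a description of letters and not a measured binding site.
FTH1, chr11:61967575-61967601, minus strand: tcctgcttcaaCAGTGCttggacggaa
FTL, chr19:48965336-48965362, plus strand: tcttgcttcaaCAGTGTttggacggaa
SLC40A1, chr2:189580662-189580688, minus strand: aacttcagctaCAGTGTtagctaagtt
TFRC, chr3:196050980-196051006, minus strand: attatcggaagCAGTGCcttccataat
TFRC, chr3:196050576-196050602, minus strand: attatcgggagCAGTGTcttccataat
TFRC, chr3:196050511-196050537, minus strand: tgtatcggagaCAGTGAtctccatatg
TFRC, chr3:196050464-196050490, minus strand: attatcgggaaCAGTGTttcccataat

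FTH1 (ENSG00000167996, chr11:61959718-61967660, minus strand) and BEST1 (ENSG00000167995, chr11:61949821-61965515, plus strand) share 1267 exonic bases on opposite strands. Of the 1229 bases of the longest principal FTH1 transcript, 880 (71.6%) lie under BEST1 exons. The labels say that the library kit kept the strand of the RNA, but the strand setting of the counting is not given in the sources used here. Reads over the shared bases can therefore not be assigned to either gene, and for every gene below it is not known what part of its reads stands under its name. Over the 12 libraries, 486557 counts stood under BEST1, 5.31% of all counts, and 10068 under FTH1. BEST1 ranked 1 in every library, with 3.73% to 6.21% of its counts.

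Counts under both names kept nearly the same ratio in every library. FTH1 held 2.03% of the counts under the pair, from 1.73% (exact 95% interval 1.60% to 1.87%) in U251 PEPD-OE 1 to 2.24% (2.10% to 2.38%) in U251 PEPD-OE 2. These intervals cover counting error only. The remaining 10 libraries lay between 1.89% and 2.15%, with all 6 T98G libraries between 1.91% and 2.06%. No group stood apart from the others in this share. Counts under ferritin pseudogene names were few: of 45 listed, 13 had any count, and they held 49 counts together, 16 of them under FTH1P1. These counts do not show how many reads matched both a ferritin gene and a pseudogene.

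**Figure D1:**
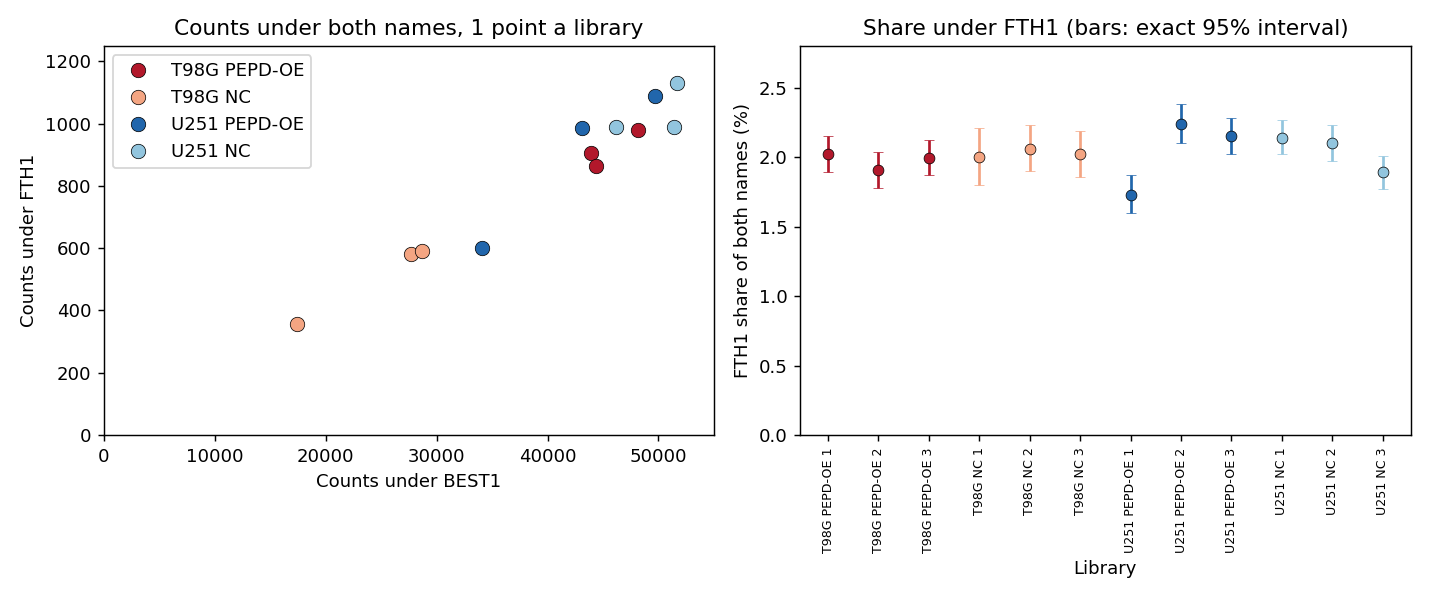
The left panel plots counts under FTH1 against counts under BEST1, with 1 point a library coloured by group, and the right panel the FTH1 share of both names in percent with exact 95% intervals for each library. The points lie near 1 line through the origin, and U251 PEPD-OE 1 has the lowest share at 1.73%.

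In T98G, PEPD over-expression went with more counts at the ferritin genes and fewer under TFRC and ACO1. Of the 9 genes tested, 3 rose (FTH1, BEST1, FTL) and 2 fell (TFRC, ACO1). Over all 8773 genes tested, 32.3% were called, 17.7% higher and 14.7% lower. FTH1 and BEST1 share bases and are not separate observations. In U251, 4 of the 9 fell (FTH1, BEST1, FTL, ACO1) and none rose, where 8.55% of all genes were called, 4.13% higher and 4.42% lower. The members' median log2 change was -0.10 in T98G, beside 0 over all genes tested, and -0.26 in U251, beside 0.0017. The list itself was not tested.

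Scaling matters for these shares. With library totals alone instead of TMM factors, a setting added after seeing the data, the median log2 change of all genes moved to -0.21 in T98G and 0.083 in U251. The share of calls that were higher moved from 54.7% to 33.6% in T98G and from 48.3% to 69.8% in U251. Members called were then 3 higher and 3 lower in T98G, and 0 higher and 3 lower in U251.

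**Figure D2:**
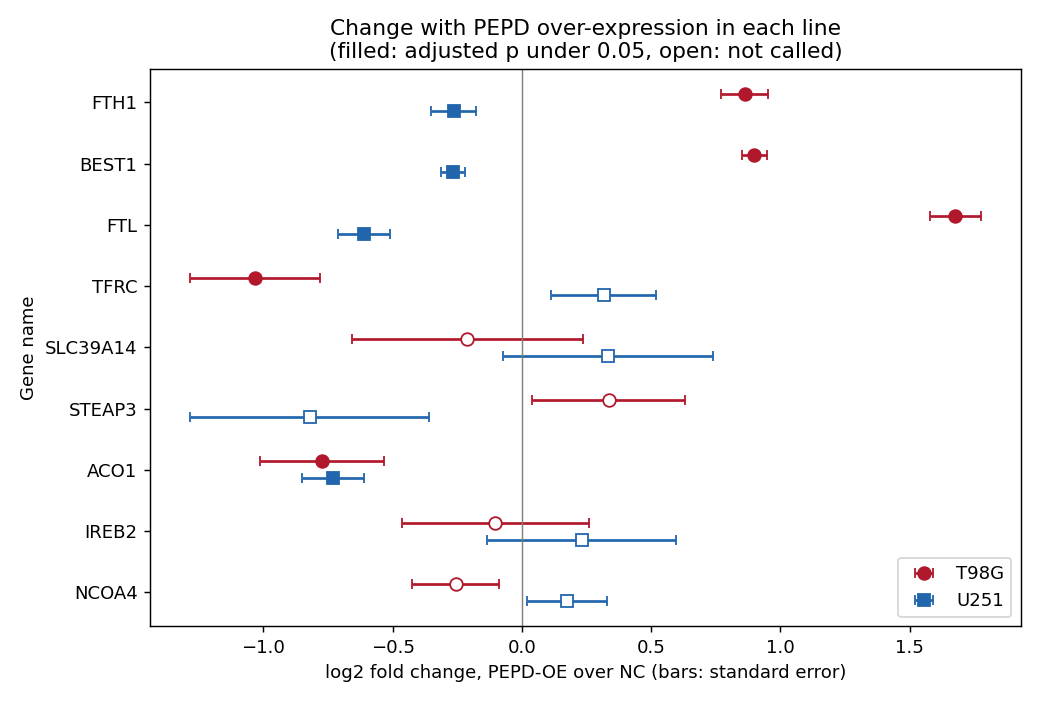
Log2 fold changes of PEPD-OE over NC for the 9 genes tested, with T98G as circles and U251 as squares, bars as standard errors, and filled symbols for an adjusted p under 0.05. FTH1, BEST1 and FTL lie to the right of 0 in T98G and to the left in U251, while ACO1 lies to the left in both.

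Levels below are counts scaled to a library of 1000000 (CPM), over TMM-scaled library sizes in the order of replicates 1 to 3. A lack of overlap between groups, stated for several genes below, was common. It held for 43.5% of all genes tested in T98G, 22.4% in U251 and 55.1% between the NC groups. BEST1 stood at 65006, 69135 and 68664 CPM in T98G PEPD-OE and at 36777, 35972 and 35964 CPM in T98G NC. All 3 PEPD-OE libraries were far above all 3 NC libraries. The counts rose 1.87-fold (log2 change 0.90, SE 0.048, adjusted p = 4.64e-39 by edgeR's quasi-likelihood test). FTH1, the ferroxidase chain of ferritin, stood at 1340, 1345 and 1398 CPM in T98G PEPD-OE and at 749.1, 756.2 and 741.4 CPM in T98G NC. Its groups did not overlap either, and the rise was 1.82-fold (log2 0.86, SE 0.091, adjusted p = 1.44e-15). Summed over both names, which takes in the reads over the shared bases on either strand but not all reads over the other bases, the locus rose from 36987 ± 467 CPM to 68963 ± 2276 CPM (SD, n = 3; log2 0.90, SE 0.048, adjusted p = 3.96e-39 by edgeR). Without the T98G libraries numbered 2, the sum still rose by 0.87 (adjusted p = 2.80e-23 by edgeR).

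In U251 the locus went the other way by a smaller step. BEST1 stood at 51390, 51501 and 53079 CPM in U251 PEPD-OE and at 62186, 59519 and 65892 CPM in U251 NC. The groups did not overlap, and the log2 level of BEST1 fell by 0.27 (SE 0.048, adjusted p = 1.04e-05 by edgeR). FTH1 stood at 905.5, 1178 and 1164 CPM in U251 PEPD-OE and at 1363, 1277 and 1267 CPM in U251 NC. Replicate 1 of PEPD-OE was the lowest by far, and the nearest libraries of the groups were 1.08-fold apart. The fall of 0.26 (SE 0.088, adjusted p = 0.0401 by edgeR) was a fragile call: it missed the threshold in 12 of 23 alternatives, with an adjusted p of 0.318 and a fall of 0.15 without U251 PEPD-OE 1. It was also lost on leaving out any 1 of the U251 NC libraries (0.0672 to 0.194), T98G PEPD-OE 3 (0.0529) or T98G NC 3 (0.0588). The sum of both names fell by 0.27 (SE 0.048, adjusted p = 9.66e-06 by edgeR) and was called in all 23 of its alternatives.

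FTL (ENSG00000087086, chr19:48965301-48966878, plus strand), the light chain of ferritin, has no exon opposite it. Its counts stood at 2010, 2138 and 2208 CPM in T98G PEPD-OE and at 647.8, 709.4 and 629.7 CPM in T98G NC. The lowest PEPD-OE library was 2.83-fold above the highest NC library. FTL rose 3.20-fold (log2 1.68, SE 0.099, adjusted p = 6.08e-30 by edgeR), and by 1.72 without the T98G libraries numbered 2. In U251 it stood at 364.6, 458.4 and 610.8 CPM in PEPD-OE and at 746.4, 694.3 and 763.4 CPM in NC. The PEPD-OE libraries were spread widely but all lay below the NC libraries. U251 PEPD-OE 1 also differed more from its replicates than other library pairs within a group did. Its chi-square per degree of freedom was 2.10 and 2.53, beside 1.31 to 1.88 for the other pairs. FTL fell by 0.61 (SE 0.10, adjusted p = 1.97e-06 by edgeR), and by 0.46 to 0.83 when 1 library at a time was left out.

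The log2 changes of FTL were larger than those of the FTH1 and BEST1 locus in both lines, and the ratio of their counts within each library compares them without any scaling. FTL counts stand under 1 name alone, while the sum takes in both strands over the shared bases. The ratio is therefore not one of RNA amounts, and it can also move with the share of reads counted under a gene's own name. U251 PEPD-OE 1, lowest in the ratio, also had the lowest FTH1 share of the pair (1.73%), and a link was not tested. Per 100 counts under FTH1 plus BEST1, FTL had 3.03, 3.03 and 3.15 counts in T98G PEPD-OE and 1.73, 1.93 and 1.72 in T98G NC. In U251 it had 0.697, 0.870 and 1.13 in PEPD-OE and 1.17, 1.14 and 1.14 in NC. The groups did not overlap in either line, with means of 3.07 ± 0.070 and 1.79 ± 0.12 in T98G and of 0.898 ± 0.22 and 1.15 ± 0.020 in U251 (SD, n = 3). A two-sided exact permutation test gave p = 0.1 in each line, the smallest that 3 against 3 allows. The U251 PEPD-OE library nearest to NC, replicate 3, was at 1.13 beside 1.14.

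**Figure D3:**
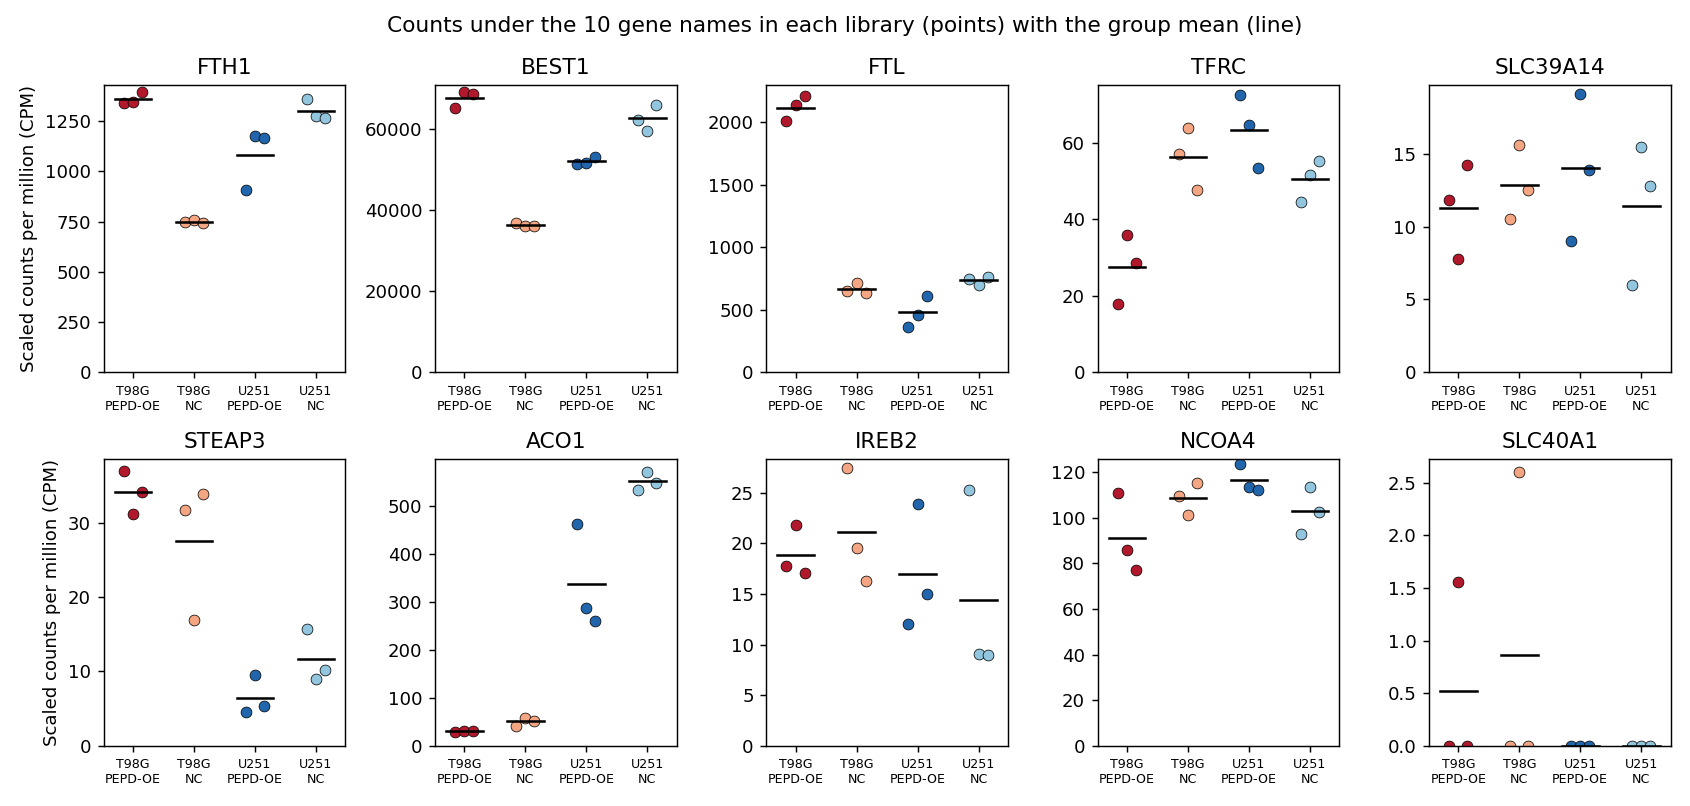
Scaled counts (CPM) under each of the 10 gene names, with 1 panel a gene on its own linear axis from 0, 1 point a library and a line at the group mean. T98G PEPD-OE stands above T98G NC for FTH1, BEST1 and FTL and below it for TFRC, and both T98G groups are far below U251 for ACO1.

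Among the uptake genes, TFRC changed in T98G alone by the call rule. TFRC (ENSG00000072274, chr3:196027183-196082189, minus strand) stood at 17.8, 35.8 and 28.5 CPM in T98G PEPD-OE and at 57.0, 63.7 and 47.7 CPM in T98G NC. These are 12 to 23 counts a library in PEPD-OE and 27 to 49 in NC. Every PEPD-OE library was below every NC library, the nearest by 1.33-fold. The counts fell by 1.03 (SE 0.25, adjusted p = 4.47e-04 by edgeR), and by 1.15 without the T98G libraries numbered 2 (adjusted p = 0.00425). The fall ranged from 0.80 to 1.26 over single left-out libraries and was called in every alternative run. In U251, TFRC stood at 72.3, 64.5 and 53.4 CPM in PEPD-OE and at 44.5, 51.5 and 55.1 CPM in NC. Those groups overlapped, with a log2 difference of 0.32 (SE 0.20, adjusted p = 0.400 by edgeR).

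STEAP3 (ENSG00000115107, chr2:119223831-119265652, plus strand) reduces ferric iron inside endosomes, and SLC39A14 (ENSG00000104635) carries iron that is not bound to transferrin into the cell. STEAP3 stood between 31.2 and 37.0 CPM in T98G PEPD-OE and between 16.9 and 33.9 CPM in T98G NC, and between 4.52 and 9.55 CPM in U251 PEPD-OE and 9.02 and 15.7 CPM in U251 NC. The groups overlapped within each line, and neither difference was called (T98G log2 0.34, SE 0.30, adjusted p = 0.416; U251 -0.82, SE 0.46, adjusted p = 0.310). STEAP3 shares 500 exonic bases with STEAP3-AS1 on the other strand, and more counts stood under the latter: 80.5 ± 11 CPM in T98G PEPD-OE and 117.6 ± 9.4 CPM in T98G NC (SD, n = 3). STEAP3-AS1 fell by 0.54 in T98G (SE 0.18, adjusted p = 0.0107 by edgeR), a call lost in 4 of 23 alternatives: DESeq2, without the T98G libraries numbered 2, without T98G PEPD-OE 2 (0.0723) and without T98G NC 3 (0.0782). SLC39A14 had 5 to 16 counts a library, and group means of 11.3 to 14.01 CPM whose ranges overlapped in each comparison.

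Of the iron sensors, ACO1 fell in both lines and IREB2 was not called in either. ACO1 (ENSG00000122729, chr9:32384603-32454769, plus strand) encodes the cytosolic aconitase that becomes an iron regulatory protein when it loses its iron-sulphur cluster. It stood at 29.6, 31.2 and 29.9 CPM in T98G PEPD-OE and at 42.2, 58.5 and 51.4 CPM in T98G NC. The PEPD-OE libraries were tightly grouped and all below NC. The fall was 0.77 (SE 0.24, adjusted p = 0.00757 by edgeR). Without the T98G libraries numbered 2 it was 0.69 and no longer called (adjusted p = 0.0878).

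In U251, ACO1 stood at 462.6, 286.5 and 260.6 CPM in PEPD-OE and at 534.5, 572.0 and 548.2 CPM in NC. Replicate 1 of PEPD-OE lay nearest to NC, and no library crossed over. The fall was 0.73 (SE 0.12, adjusted p = 1.40e-06 by edgeR), and 0.57 to 1.01 over single left-out libraries. IREB2 (ENSG00000136381, chr15:78437431-78501456, plus strand), the other iron regulatory protein, had 7 to 21 counts a library. Its group means ran from 14.4 CPM in U251 NC to 21.1 CPM in T98G NC, with overlapping ranges, and log2 differences of -0.10 (SE 0.36) in T98G and 0.23 (SE 0.37) in U251.

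NCOA4 (ENSG00000266412, chr10:46005088-46030714, minus strand), the receptor that takes ferritin to the lysosome, stood at 110.9, 85.7 and 76.9 CPM in T98G PEPD-OE and at 109.7, 101.3 and 115.4 CPM in T98G NC. Replicate 1 of PEPD-OE lay among the NC libraries. The log2 difference was -0.26 (SE 0.17, adjusted p = 0.256 by edgeR), and with library totals alone it was -0.47 and called (adjusted p = 0.0203). In U251 the means were 116.4 ± 6.3 CPM in PEPD-OE and 102.8 ± 10 CPM in NC (SD, n = 3; log2 0.17, SE 0.15, adjusted p = 0.582 by edgeR). SLC40A1 (ENSG00000138449, chr2:189560579-189583758, minus strand), the exporter ferroportin, had 1 count in T98G PEPD-OE, 2 in T98G NC and 0 in all 6 U251 libraries. A count of 0 allows up to 3 counts a library, which is 3.25 to 4.39 CPM of the plain library totals in U251, so no change of it was detectable at this depth.

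Per kb of exon, counts under BEST1, FTL and FTH1 led in that order in every group, and those under SLC40A1 came last. In T98G PEPD-OE the mean CPM per kb was 7570 for BEST1, 2413 for FTL, 670.3 for FTH1, 22.4 for NCOA4 and 7.48 for STEAP3, followed by ACO1, TFRC at 3.47, IREB2 at 1.75, SLC39A14 at 1.63 and SLC40A1 at 0.12. In U251 NC it was 7002 for BEST1, 836.8 for FTL, 641.4 for FTH1 and 73.0 for ACO1, which stood above NCOA4 at 25.2 and TFRC at 6.39. FTL and FTH1 lay close together in U251 PEPD-OE, at 544.4 and 533.3 CPM per kb, within the spread of FTL. IREB2 and SLC39A14 changed places between the lines, at 1.95 and 1.86 CPM per kb in T98G NC and 1.57 and 2.02 in U251 PEPD-OE, and a few counts decide their order. Since the counted strand is not known, this is an order of counts under names and not of RNA amounts.

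The lines' changes differed at the ferritin genes and at TFRC. For the T98G change minus the U251 change, 3 of the 9 members were called higher and 1 lower, beside 27.7% of all genes called (14.1% higher, 13.6% lower). The difference was 1.17 for BEST1 (SE 0.068, adjusted p = 6.67e-35), 1.13 for FTH1 (SE 0.13, adjusted p = 7.27e-14) and 2.29 for FTL (SE 0.14, adjusted p = 3.37e-28), all by edgeR. For TFRC it was -1.35 (SE 0.32, adjusted p = 4.67e-04 by edgeR). Without the T98G libraries numbered 2 the differences were 1.14 for BEST1, 1.13 for FTH1, 2.33 for FTL and -1.46 for TFRC, and each was called. ACO1, lower with PEPD-OE in both lines, had a difference of -0.043 (SE 0.25, adjusted p = 0.933), a p that does not show equal changes.

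The control groups of the lines also differed. Between T98G NC and U251 NC, 4 of the 9 members were called (1 higher, 3 lower in T98G), close to the 48.7% of all genes called (24.4% higher, 24.3% lower). ACO1 was 10.6-fold lower in T98G NC, at 50.7 ± 8.2 CPM against 551.6 ± 19 CPM (SD, n = 3; log2 -3.41, SE 0.16, adjusted p = 1.44e-40 by edgeR). The lowest U251 NC library was 9.14-fold above the highest T98G NC library. BEST1 was lower by 0.79 and FTH1 by 0.80 (adjusted p = 8.89e-34 and 3.13e-14 by edgeR), so that the locus in T98G PEPD-OE, at 66346 to 70480 CPM, reached the range of U251 NC, 60796 to 67159 CPM. FTL did not pass the test between the control groups (log2 -0.15, SE 0.10, adjusted p = 0.217). STEAP3 was 2.29-fold higher in T98G NC (log2 1.19, SE 0.35, adjusted p = 0.00293), not called without T98G NC 3 (adjusted p = 0.0587), and STEAP3-AS1 was 5.47-fold higher (adjusted p = 4.65e-20). IREB2 was called without U251 NC 1 only (log2 1.15, adjusted p = 0.0325).

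Markers of other cell types were summed in the same libraries. Fibroblast and pericyte markers (COL1A1, COL1A2, DCN and PDGFRB) summed to 541 to 666 CPM in T98G PEPD-OE against 243 to 309 CPM in T98G NC, and to 309 to 399 CPM in U251 PEPD-OE against 505 to 541 CPM in U251 NC, with DCN at 0 in all groups but U251 NC. The 8 glioma and astroglial markers summed to 1143 to 1334 CPM and 1530 to 1624 CPM in the T98G groups, and to 3181 to 3725 CPM and 4630 to 4708 CPM in the U251 groups, PEPD-OE first. Epithelial markers had EPCAM at 0 throughout and reached 101 CPM at most. Endothelial markers reached 20.3 CPM at most. Macrophage and microglial markers reached 59.8 CPM at most, in the libraries with haemoglobin counts. The part of these shifts in the ferritin results was not tested.

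A wider list of 81 other iron genes, set out by role, had 40 that passed the filter. In T98G, 13 rose and 4 fell (median log2 change 0.19), where 17.7% of all genes tested were called higher and 14.7% lower. In U251, 3 fell and none rose (median -0.012), a share near the 8.55% of all genes called. The list was not tested, and the counts by role below rest on few genes and stand beside the same shares. With library totals alone the T98G split was 11 higher and 8 lower. Without the T98G libraries numbered 2 it was 11 higher and 3 lower of 44 tested, and LRP1, CP, PCBP2, PCBP3, EPAS1, BLVRB, ABCB8, MMS19 and HSPA9, described next, were still called in the same direction. Among the genes that rose, PCBP3 and BLVRA passed the filter on low counts only through T98G PEPD-OE, where they were high. That filter favoured their calls as higher.

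Among uptake and reduction genes, 3 of the 4 tested rose in T98G, and 2 of these calls were lost under alternatives. The role lists 12 genes, and the others had too few counts to be tested. Of those, STEAP1 was lower in T98G PEPD-OE (4.53 CPM against 13.6 CPM in T98G NC), as was SLC39A8 (2.01 CPM against 7.77 CPM). Neither gene's T98G groups overlapped, at totals of 9 against 26 and 4 against 15 counts. LRP1, a receptor that takes up haem bound to haemopexin, rose from 65.8 ± 3.8 CPM to 194.7 ± 13 CPM (SD, n = 3; log2 1.56, SE 0.17, adjusted p = 6.66e-15 by edgeR). CYBRD1, a ferric reductase, rose from 14.9 ± 6.6 CPM to 35.7 ± 1.6 CPM (log2 1.18, adjusted p = 0.00223), a call lost without the T98G libraries numbered 2 (0.95, adjusted p = 0.0660). STEAP2, a metalloreductase, rose by 0.74 (adjusted p = 0.0242 by edgeR), a call lost in 6 alternatives, among them without T98G PEPD-OE 1 (0.47, adjusted p = 0.286) and without T98G NC 2 (0.55, adjusted p = 0.176). Without the T98G libraries numbered 2, STEAP2 rose by 0.59 and was not called (adjusted p = 0.202 by edgeR). In U251, LRP1 fell by 1.38 (adjusted p = 0.00895), from 8.97 to 28.9 CPM in NC to 5.97 to 9.04 CPM in PEPD-OE. Those groups overlapped, the call was lost without U251 PEPD-OE 2 (0.0675) or U251 NC 1 (0.176), and the gene was singled out here after its values were seen.

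The 1 export gene tested was CP, ceruloplasmin, a copper ferroxidase that helps load exported iron onto transferrin. CP stood at 798.7, 757.3 and 827.7 CPM in T98G PEPD-OE and at 268.0, 279.4 and 263.4 CPM in T98G NC. The lowest PEPD-OE library was 2.71-fold above the highest NC library, and the rise was 2.94-fold (log2 1.55, SE 0.11, adjusted p = 1.11e-26 by edgeR). In U251, CP stood at 135.6, 101.5 and 138.8 CPM in PEPD-OE and at 156.5, 186.8 and 153.7 CPM in NC. The fall of 0.40 (SE 0.13, adjusted p = 0.0393 by edgeR) was lost in 12 alternatives, with a fall of 0.27 (adjusted p = 0.349) without U251 PEPD-OE 2, and also without T98G PEPD-OE 2 (0.0526) or 3 (0.0519), T98G NC 3 (0.0539), or U251 NC 1 (0.0656), 2 (0.229) or 3 (0.0597).

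**Figure D4:**
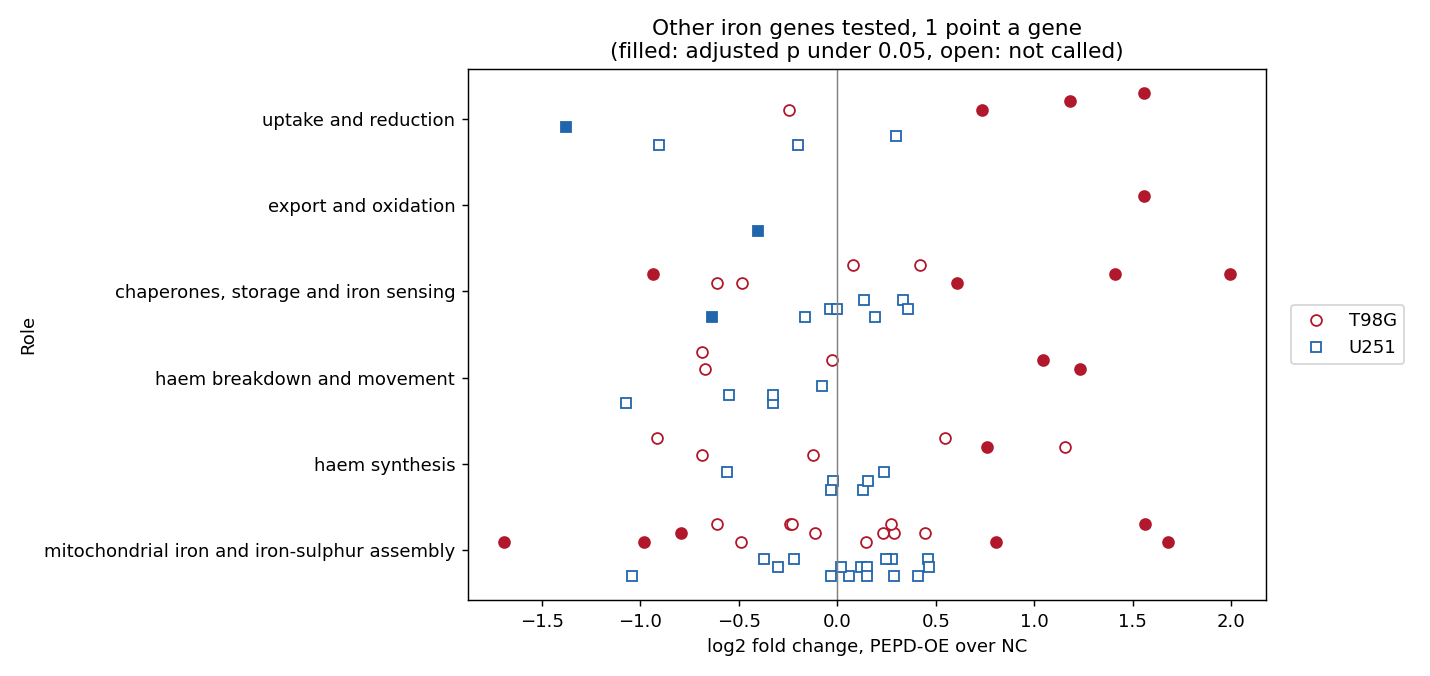
Log2 fold changes of PEPD-OE over NC for the 40 other iron genes tested, by role, with 1 point a gene, T98G as circles, U251 as squares and filled symbols for an adjusted p under 0.05. In T98G 13 filled points lie to the right of 0 and 4 to the left, and in U251 all 3 filled points lie to the left.

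Of 8 tested chaperone, storage and sensing genes, 3 rose and 1 fell in T98G. PCBP2, a chaperone that hands iron to ferritin, rose by 0.61 in T98G (228.9 ± 10 CPM against 149.1 ± 15 CPM; SD, n = 3; adjusted p = 1.44e-04 by edgeR) and fell by 0.64 in U251 (112.2 ± 8.9 CPM against 175.6 ± 21 CPM; adjusted p = 5.91e-04). PCBP3, of the same family, stood between 21.4 and 22.2 CPM in T98G PEPD-OE and between 0 and 7.53 CPM in T98G NC (log2 1.99, adjusted p = 7.50e-04), with no count in U251. These are 14 to 15 counts a library in T98G PEPD-OE and 0 to 6 in T98G NC. PCBP3 passed the filter on low counts only through T98G PEPD-OE, so the filter favoured its call as higher there. EPAS1, a hypoxia-inducible factor subunit, rose by 1.41 in T98G (adjusted p = 6.19e-07). HERC2, a ubiquitin ligase that acts on NCOA4, fell by 0.94 (adjusted p = 0.0153). That call was lost with DESeq2, without T98G PEPD-OE 3 (a fall of 0.48, adjusted p = 0.276) and without T98G NC 2 (0.0984).

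In haem breakdown and movement, 2 of 5 tested genes rose in T98G, the biliverdin reductases BLVRA and BLVRB. BLVRB rose from 60.0 ± 12 CPM to 125.9 ± 6.8 CPM (SD, n = 3; log2 1.04, adjusted p = 1.04e-06 by edgeR). In haem synthesis, 1 of 6 rose: ALAS1, the first enzyme of the pathway, by 0.76 (adjusted p = 0.0248), a call lost in 8 alternatives, among them without T98G PEPD-OE 1 (0.0954) or 3 (0.0768) and without T98G NC 1 (0.0540) or 2 (0.235). Without the T98G libraries numbered 2, ALAS1 rose by 0.63 and was not called (adjusted p = 0.171 by edgeR). Of 16 mitochondrial iron and iron-sulphur genes, 3 rose and 3 fell. ABCB8, a mitochondrial transporter, rose by 1.68 (adjusted p = 2.69e-05) and MMS19, which delivers iron-sulphur clusters to cytosolic and nuclear proteins, by 1.56 (adjusted p = 8.69e-08). HSPA9, the mitochondrial chaperone of cluster assembly, fell by 0.98 (162.6 ± 31 CPM against 321.2 ± 7.1 CPM; SD, n = 3; adjusted p = 1.01e-10 by edgeR). CISD2, an iron-sulphur protein, fell by 1.69 at 3.12 to 4.44 CPM against 8.44 to 15.6 CPM (adjusted p = 0.0131), a call lost with DESeq2, without the T98G libraries numbered 2 and without T98G NC 2 (0.0642). Other calls in these roles, named here after their values were seen, were BLVRA, whose T98G groups overlapped (log2 1.23, adjusted p = 0.00811), and SLC25A37, the mitochondrial iron importer (0.81, adjusted p = 5.17e-04 by edgeR). None of these 3 roles had a call in U251. LRP1, CP, PCBP2, CISD2 and ABCB8 have exons opposite another gene, so reads over their shared bases cannot be assigned, as for FTH1. For genes without such exons it is also not known what part of their reads was counted.

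By the mean absolute difference of centred log2 CPM over the 12 libraries, the gene whose counts ran most like BEST1 was FTH1 (0.0721), followed by USP3-AS1 (0.0819), SPARC (0.0868), WDR33 (0.0920) and MEA1 (0.0930). For the sum of FTH1 and BEST1, the nearest was USP3-AS1 (0.0818), then SPARC (0.0862). These are descriptions over libraries that share groups and lines. The core of the antioxidant response element, a motif found near ferritin genes (TGACNNNGC or TGAGNNNGC, both strands), was searched in RefSeq promoter windows of 300 bases, which held 9 windows for 7 of the members. It matched 2 windows, 1 each of NCOA4 and SLC40A1, beside 29.1% of all 35116 windows. FTH1, BEST1 and SLC39A14 had no window in the table.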

How the data were processed

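Polyadenylated RNA was sequenced from 12 libraries (4 groups of 3). The authors deposited whole-number counts per gene for 63241 genes; the submitters' processing notes name fastp, HISAT2, featureCounts, Subread and GRCh38. How the counting treated strand, and which annotation release it used, is not given in the sources used here. Counts were tested in R 4.3.3 with edgeR 4.0.16: filterByExpr (minimum count 10), TMM, robust quasi-likelihood with 1 mean per group over all 12 libraries (8 residual degrees of freedom), Benjamini-Hochberg over 8773 genes, called at an adjusted p under 0.05. SE is the log2 change over the square root of F. The code was tested on simulated data. Exons came from GENCODE 29. The members and lists were chosen with earlier results of these data known. Other iron genes are named, up to 4 per role and line, by size of change among those called, at 2 CPM or more and without overlap between groups. DESeq2 1.42.0, other scalings, filters and fits, and each library left out were alternatives. The values of 1 other iron gene are not reported here.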

Additional observations from a re-analysis of the deposited data

Results flagged for a closer look

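The T98G change and the U251 change differed, by edgeR's quasi-likelihood test of the difference itself with Benjamini-Hochberg adjustment, for 4 of the members. The log2 differences (T98G minus U251) were 1.13 for FTH1, 1.17 for BEST1, 2.29 for FTL and -1.35 for TFRC, and 1.17 for FTH1 and BEST1 summed. Adjusted p-values ran from 5.63e-35 for the sum to 4.67e-04 for TFRC.

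Of the 40 other iron genes tested, 13 were called for this difference (9 higher, 4 lower), beside 27.7% of all genes called. Among those named by the rule, 11 differed by the same test. They had been named for a call within a line, which favours a difference between the lines. The T98G change was the higher of the pair for LRP1 (2.93), ABCB8 (2.72), CP (1.96), STEAP2 (1.64), BLVRB (1.59), EPAS1 (1.45), MMS19 (1.28) and PCBP2 (1.25), and the lower for CISD2 (-2.10), HERC2 (-1.30) and HSPA9 (-1.27). The differences for CISD2 (adjusted p = 0.0122) and HERC2 (adjusted p = 0.00879) were no longer called with DESeq2 (0.0709 and 0.0738) or without U251 PEPD-OE 2 (0.124 and 0.0746). HERC2 was also lost without T98G PEPD-OE 3 (0.105), and CISD2 without the T98G libraries numbered 2 (0.0856). BLVRA, named after its values were seen, also differed (2.31, adjusted p = 0.00829 by edgeR).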

How the results depend on the processing

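No change of sign was found where the main fit or the alternative gave a call. Differences called in neither were not counted as reversed, though some changed sign, such as IREB2 in T98G (-0.32 to 0.071). Of the values that answer a comparison, 278 under alternatives stayed on their side of the threshold or within 1.5 times the main count and 7 moved. Of the values for single genes, 1865 stayed on their side of the threshold, 59 lost a call and 10 gained one. The 1865 include values called in neither the main fit nor the alternative. When only genes without an opposite-strand exon were fitted, the members called were 3 in T98G, 2 in U251 and 2 for the difference between the lines. Only 6 members can enter that fit. The other iron genes called in U251 numbered 3, but 1 with each line fitted alone, and 1 to 5 when single libraries were left out (5 without U251 PEPD-OE 1, 1 without U251 PEPD-OE 2 or U251 NC 1). The cause was not tested.

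With the replicate number as a block, 5 members were called in T98G, 4 in U251 and 4 for the difference, and the FTH1 and BEST1 sum changed by 0.90 in T98G and -0.27 in U251. Same-numbered PEPD-OE and NC libraries had correlations of their deviations between -0.0417 and 0.0582, and differently numbered ones between -0.0444 and 0.0391. The highest was that of the T98G libraries numbered 2, which both held haemoglobin counts. With 3 libraries a group, these values do not show whether the numbers pair the samples. Depth limits IREB2, SLC39A14, STEAP3 and SLC40A1, which had few counts a library: for the first 3 of these the SE of a log2 change was 0.30 to 0.46.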
